A study of Rattus norvegicus with 4 samples.

Results

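Granins are acidic proteins of the regulated secretory pathway, and in these libraries their mRNAs did not move together after Tbk1 knockdown. Of 9 genes chosen by name as granins and dense core granule proteins (Chga, Chgb, Scg2, Scg3, Scg5, Vgf, Pcsk1n, Ptprn and Ptprn2), 8 were in the table of 15172 genes and all 8 were among the 13953 genes tested. Pcsk1n was not analysed here. Scg2 mRNA rose 2.08-fold and Ptprn mRNA fell to 0.662 of control. The median log2 fold change of the 8 genes was -0.015, beside 0.0071 over all tested genes.

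The cells were INS-1 832/13, a glucose-responsive clone of a rat insulinoma, so the data describe 1 clonal tumour line and not islets. Bulk RNA was sequenced from 2 libraries of cells transfected with non-targeting siRNA (siScramble) and 2 libraries of cells transfected with a pool of siRNAs against Tbk1 (siTbk1), 36 h after transfection. TBK1 is a serine/threonine kinase, best known from innate immune signalling. Both groups passed through the same transfection reagent, and no untransfected library entered the comparison. The libraries carried replicate numbers 2 and 3 in each group, and nothing stated whether these were separate cultures, so the p-values measure the spread between these samples, which may be technical.

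Dense core granules are the storage compartments of endocrine and neuroendocrine cells. Chromogranins and secretogranins aggregate in the trans-Golgi network in the mildly acidic, calcium-rich lumen, where hormone precursors are also packed, and several of them are themselves cut into peptides. The granule membrane carries other proteins, among them the receptor-type tyrosine phosphatase homologues encoded by Ptprn (also known as ICA512 or IA-2) and Ptprn2 (phogrin), which lack the usual phosphatase activity and are autoantigens in type 1 diabetes. In beta cells the main cargo of these granules is insulin.

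The promoters of 3 genes are shown because these genes covered the range of responses, with Scg2 the highest, Ptprn the lowest, and Vgf sharing a motif with Scg2. Each window is from RefSeq on GRCr8 and runs from 250 bases before to 50 bases after the annotated start, on the gene's own strand, which is minus in all 3. They lie at chr9:88256817-88257116 (Scg2), chr12:25276971-25277270 (Vgf) and chr9:84204774-84205073 (Ptprn). Capitals mark the cAMP response element TGACGTCA, or its half-site TGACG read on either strand.
Scg2: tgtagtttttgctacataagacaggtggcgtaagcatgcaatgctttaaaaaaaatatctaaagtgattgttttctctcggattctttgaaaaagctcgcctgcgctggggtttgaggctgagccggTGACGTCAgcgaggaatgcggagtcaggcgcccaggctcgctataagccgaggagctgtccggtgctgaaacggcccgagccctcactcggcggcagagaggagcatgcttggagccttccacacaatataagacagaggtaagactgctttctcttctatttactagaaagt
Vgf: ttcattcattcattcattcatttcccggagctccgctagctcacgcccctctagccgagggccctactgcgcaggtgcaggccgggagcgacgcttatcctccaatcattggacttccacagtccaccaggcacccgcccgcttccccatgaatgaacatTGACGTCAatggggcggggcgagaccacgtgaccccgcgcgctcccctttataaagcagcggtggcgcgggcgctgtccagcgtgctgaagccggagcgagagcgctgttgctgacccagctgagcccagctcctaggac
Ptprn: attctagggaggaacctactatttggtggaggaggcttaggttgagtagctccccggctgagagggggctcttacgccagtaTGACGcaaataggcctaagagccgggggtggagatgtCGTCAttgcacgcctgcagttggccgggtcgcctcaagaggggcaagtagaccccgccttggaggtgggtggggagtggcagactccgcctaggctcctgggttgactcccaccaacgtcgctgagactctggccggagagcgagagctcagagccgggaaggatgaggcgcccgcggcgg
The palindrome TGACGTCA, the consensus bound by CREB family factors, lay 123 bases before the Scg2 start and 90 bases before the Vgf start. Ptprn had no TGACGTCA and held the half-site once on each strand, 168 and 131 bases before its start.

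The libraries held 38428926 to 47759013 assigned reads, so that 3 reads corresponded to 0.0628 to 0.0781 CPM, the reads of a gene scaled to the size of its library. Tbk1 stood at 53.7 and 52.5 CPM in the control libraries and at 11.8 and 13.3 CPM in the siTbk1 libraries, a log2 fold change of -2.08 (SE 0.076, edgeR adjusted p = 3.7e-08). Of the 8 beta cell markers listed, 7 were analysed, and their summed level was 13084 and 13784 CPM in the controls against 10177 and 8903 CPM after siTbk1, a sum made up mostly of Ins1. Ins1 and Ins2 were called lower. By the edgeR adjusted p alone, Slc2a2 and Pdx1 were also lower, with log2 fold changes of -0.37 and -0.24. Iapp, Nkx6-1 and Slc30a8 were higher by the adjusted p, by 0.38, 0.23 and 0.15 on the log2 scale. The alpha cell gene Gcg was also present, at 1389 and 1314 CPM against 815 and 878 CPM, and was called lower (log2 -0.68). Hhex (delta cells) and Th (chromaffin cells), the only genes of their 3-gene lists analysed, were at or below 0.23 CPM. Of 3 duct genes Krt7 was at 78.2 to 102 CPM and Sox9 at 0.21 to 0.40 CPM, of 4 mesenchymal genes only Vim was analysed, at 0.28 to 0.79 CPM and higher after siTbk1 (log2 1.15), and 0 of 5 acinar genes were analysed. In bulk RNA, fewer cells of a type and less RNA per cell cannot be told apart. The part of these marker shifts in the results for granule genes was not tested.

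A gene was called changed at an edgeR adjusted p under 0.05 and a change of at least 1.5-fold. By this rule 1 of the 8 genes was higher (Scg2) and 1 was lower (Ptprn), where 4.81% and 6.18% of all tested genes were called higher and lower. By the adjusted p alone, 3 were higher (Scg2, Scg3 and Chgb) and 2 were lower (Ptprn and Vgf), beside 24.4% and 24.8% of all genes. Both siTbk1 libraries lay above both controls for 3 genes and below them for 3, beside 38.7% and 37.9% of all genes, and the groups overlapped for Chga and Scg5. With 8 genes these counts are a description, read no further than the background shares.

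**Figure D1:**
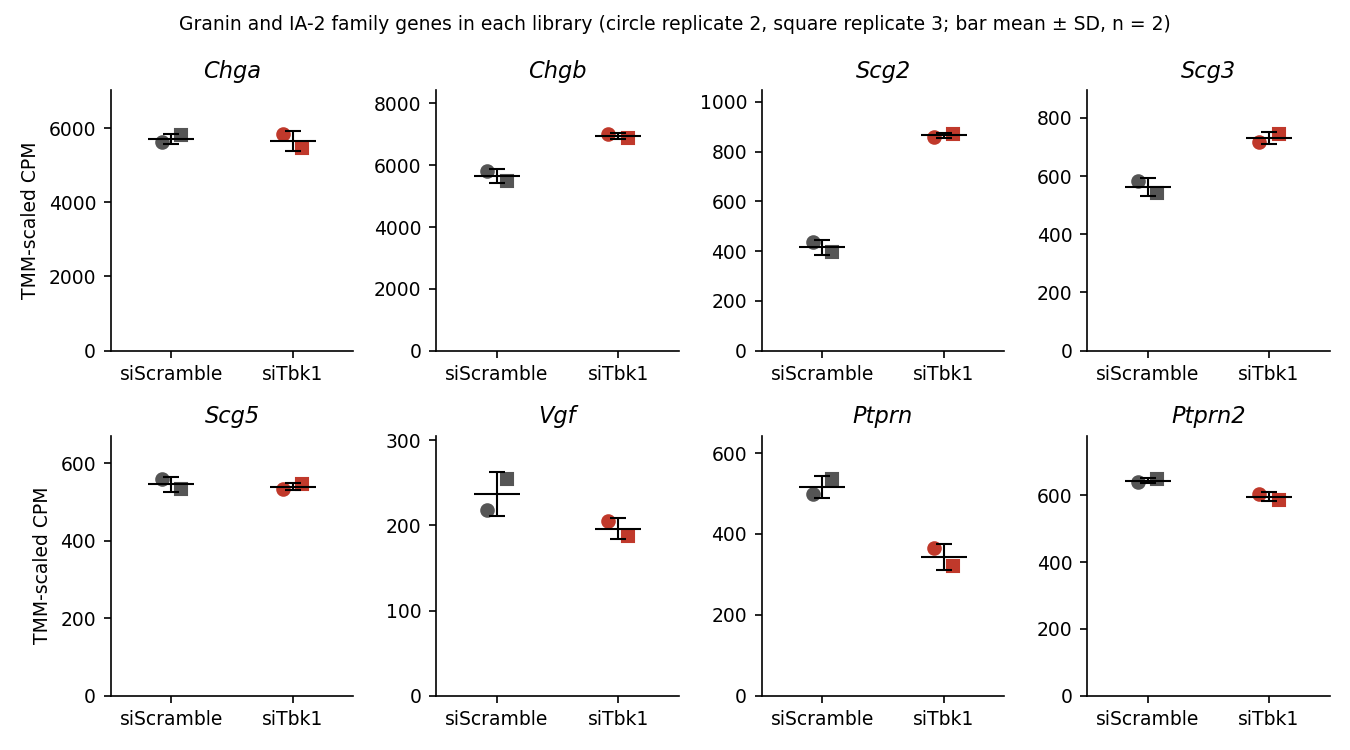
CPM of the 8 granin and granule genes in each library, siScramble and siTbk1, with the group mean and bars of 1 SD (n = 2). Scg2 shows the widest separation as a ratio of the group means, 2.08-fold, from 436 and 395 CPM in the controls to 858 and 871 CPM after siTbk1, while the libraries of Chga and Scg5 overlap.

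The chromogranins were the first group. Chga encodes chromogranin A, the granin most widely used as a neuroendocrine marker and the precursor of several peptides. Its mRNA was at 5612 and 5805 CPM in the controls and at 5844 and 5469 CPM after siTbk1, so the siTbk1 libraries lay on either side of both controls. The log2 fold change was -0.013 (SE 0.057, 95% interval -0.14 to 0.11, edgeR adjusted p = 0.867). Chgb, which encodes chromogranin B, was at 5805 and 5504 CPM in the controls and at 7017 and 6890 CPM after siTbk1. Both treated libraries were above both controls, and the rise was 1.23-fold (log2 0.30, SE 0.055, edgeR adjusted p = 0.00086), under the 1.5-fold limit. Within each library, log2 of the ratio of Chgb to Chga was 0.049 and -0.077 in the controls and 0.26 and 0.33 after siTbk1. The ratio of the paired chromogranins was thus 1.24-fold higher on average, a pair chosen after its values were seen and therefore not tested. Chga and Chgb are on chromosomes 6 and 3 (chr6:126434226-126445569 and chr3:125428260-125441595 in rn6, the build of all gene coordinates given here, both on the plus strand). They made up 1.16% and 1.15% of all assigned reads in the controls and 1.27% and 1.21% after siTbk1.

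The secretogranins differed from one another. Scg2 encodes secretogranin II, the precursor of secretoneurin, and lies at chr9:85237458-85243002 on the minus strand. Its mRNA was at 436 and 395 CPM in the controls (415 ± 29.0, SD, n = 2) and at 858 and 871 CPM after siTbk1 (865 ± 9.29, SD, n = 2). The lowest treated library was well above the highest control. The log2 fold change was 1.06 (SE 0.058, 95% interval 0.93 to 1.18, edgeR adjusted p = 2.6e-07). Among the 147 tested genes with a mean CPM at least as high as that of Scg2, counting Scg2 itself, none had a higher log2 fold change. That cut used the mean over all libraries, which the rise of Scg2 itself lifted. Scg2 was singled out with its change known, so this rank is a description. Among all tested genes, 192 had a log2 fold change at least as high, which placed Scg2 at the 98.6th percentile.

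Scg3 encodes secretogranin III, a granin that binds cholesterol-rich granule membrane and chromogranin A, and lies at chr8:82582352-82641537 on the minus strand. Its mRNA was at 584 and 541 CPM in the controls and at 717 and 745 CPM after siTbk1. It rose 1.30-fold (log2 0.38, SE 0.055, edgeR adjusted p = 0.00017), the same direction as Scg2 with a smaller change. Scg5 encodes the chaperone 7B2, which is needed to make active prohormone convertase 2, and lies at chr3:105235050-105279463 on the minus strand. It was at 559 and 532 CPM in the controls and at 533 and 546 CPM after siTbk1. Both treated values lay between the control values, and the log2 fold change of -0.017 (SE 0.052, 95% interval -0.13 to 0.096) did not pass the test (edgeR adjusted p = 0.810). The convertase itself, Pcsk2, named after its value was seen, was at 1259 and 1245 CPM against 1144 and 1107 CPM (log2 -0.15, edgeR adjusted p = 0.025).

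Vgf encodes a neuroendocrine precursor that is cut into several secreted peptides, and lies at chr12:22677607-22680631 on the minus strand. Its mRNA was at 218 and 255 CPM in the controls and at 205 and 188 CPM after siTbk1. Both treated libraries were below both controls, but the gap between the nearest libraries was smaller than the gap between the controls. The log2 fold change was -0.27 (SE 0.072, 95% interval -0.42 to -0.11, edgeR adjusted p = 0.0084). Without replicate 3 of siScramble it was -0.15 (edgeR adjusted p = 0.083), and with each library corrected for genomic span it was also -0.15 (edgeR adjusted p = 0.083).

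The membrane phosphatase homologues both lay below control after siTbk1. Ptprn, at chr9:82446633-82461904 on the minus strand, was at 498 and 536 CPM in the controls (517 ± 27.2, SD, n = 2) and at 365 and 320 CPM after siTbk1 (342 ± 31.8, SD, n = 2). The groups were far apart, and the fall to 0.662 of control gave a log2 fold change of -0.59 (SE 0.066, 95% interval -0.74 to -0.45, edgeR adjusted p = 3.1e-05). This was only just past the 1.5-fold limit of 0.585 on the log2 scale. The log2 fold change was -0.54 without replicate 3 of siScramble, -0.50 without replicate 3 of siTbk1 and -0.54 after correction for genomic span, each short of the limit. Ptprn2, at chr6:144384773-145133043 on the plus strand, was at 639 and 650 CPM in the controls and at 605 and 587 CPM after siTbk1. Its log2 fold change was -0.11 (SE 0.050, edgeR adjusted p = 0.082), and after correction for genomic span it was -0.23 (edgeR adjusted p = 0.0059). Within each library, log2 of the ratio of Ptprn to Ptprn2 was -0.36 and -0.28 in the controls and -0.73 and -0.88 after siTbk1, a mean difference of -0.48, again for a pair chosen after its values were seen. Resp18, named after its value was seen, encodes a granule luminal protein related to the Ptprn luminal domain. It lies 8855 bases from Ptprn on the same strand. It was at 212 and 218 CPM in the controls and at 208 and 206 CPM after siTbk1 (log2 -0.050, edgeR adjusted p = 0.437), although some of its reads were split with other genes.

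**Figure D2:**
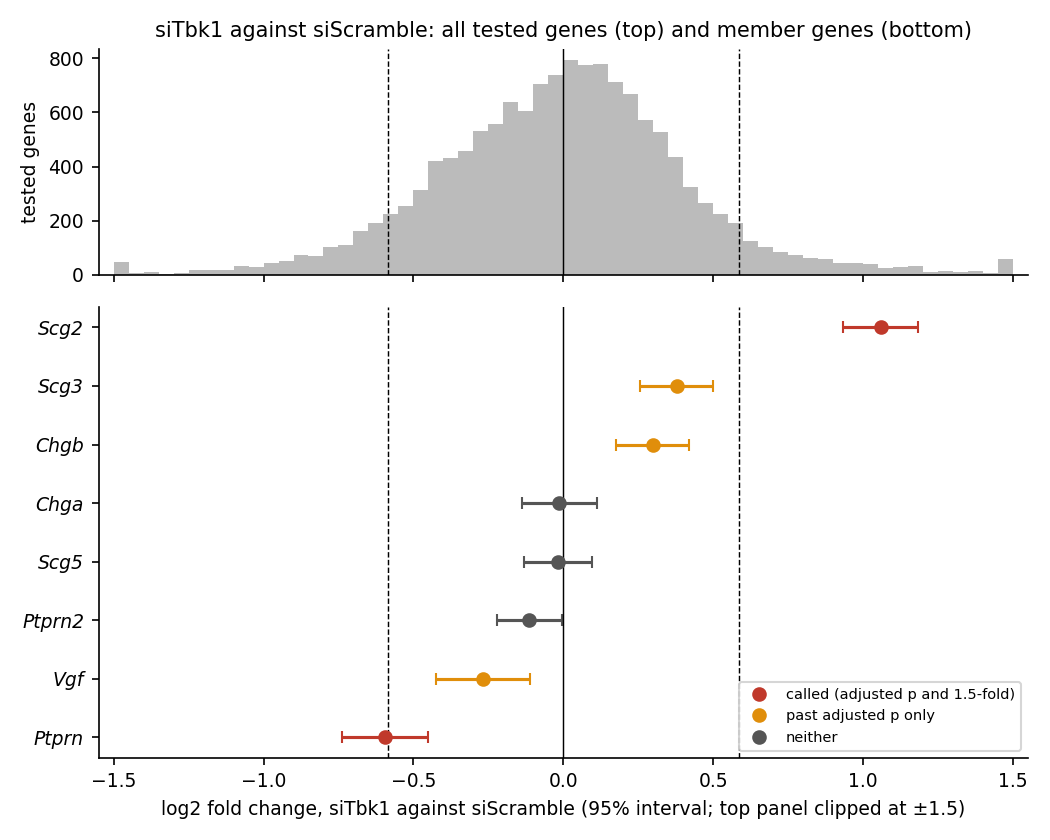
Log2 fold changes (siTbk1 against siScramble) of the 8 genes with 95% confidence intervals, and dashed lines at the 1.5-fold limit. Scg2 at 1.06 lies well beyond the limit, Ptprn at -0.59 lies at it, and the other 6 genes lie between -0.27 and 0.38.

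Genomic span moved with the fold changes over the whole transcriptome. The median log2 fold change was -0.0995 in the shortest of 4 equally large classes of tested genes, with spans up to 6.85 kb, and 0.1193 in the longest class, from 52.0 kb. Scg2 (5.54 kb) and Vgf (3.02 kb) were in the shortest class, and Scg3 (59.2 kb) and Ptprn2 (748 kb) were in the longest. With the correction for span, Scg2 had a log2 fold change of 1.17, against 1.06 without it. Scg3 had 0.28 with it, against 0.38 without, and Chgb had 0.36 against 0.30.

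The comparison of Scg2 with the other 7 genes was made within each library, where library scaling has no effect. Scg2 reads equalled 3.13% and 2.85% of the summed CPM of the other 7 genes in the controls and 5.61% and 5.91% after siTbk1. On the log2 scale this ratio was -5.06 ± 0.094 against -4.12 ± 0.052 (SD, n = 2), a difference of 0.95, or 1.93-fold, where the larger of the gaps within a group was 0.133. Against each gene alone the ratio of Scg2 rose 1.60-fold for Scg3, 1.70-fold for Chgb, 2.11-fold for Chga and for Scg5, 2.26-fold for Ptprn2, 2.51-fold for Vgf and 3.16-fold for Ptprn. The groups of libraries were separate for all 7 ratios. Scg2 was singled out with its change known, so these ratios are a description and carry no p-value. The 8 genes together took 1.45% of assigned reads in each control library and 1.59% and 1.53% after siTbk1. Transcript lengths were not used here, so the genes were not ranked by level.

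**Figure D3:**
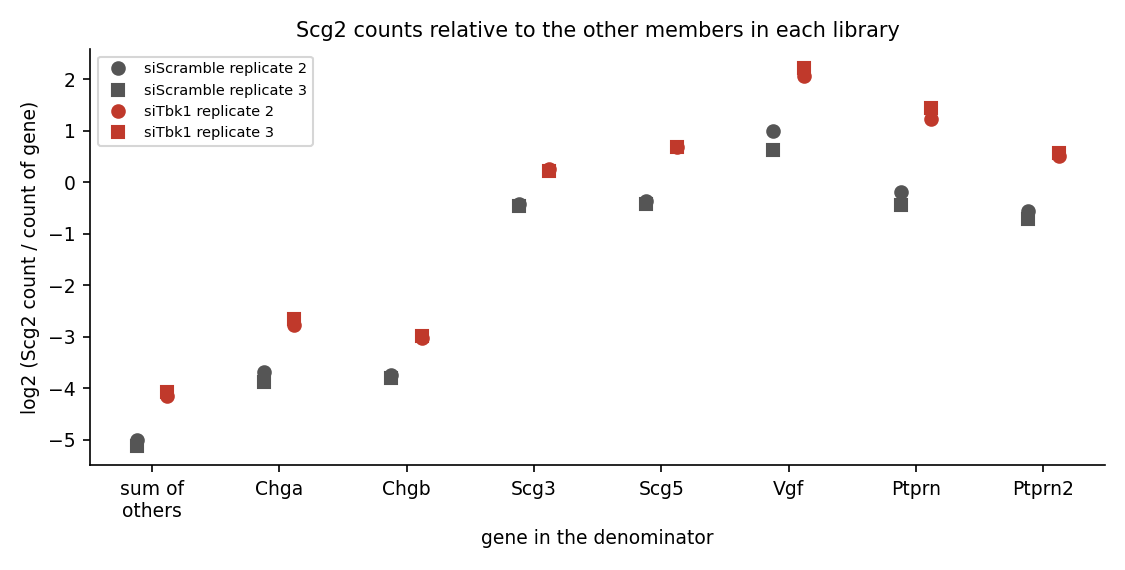
Log2 ratio of Scg2 to the summed CPM of the other 7 genes, and to each of them, in each library. The siTbk1 libraries lie above the control libraries in every ratio, by 0.68 for Scg3 up to 1.66 for Ptprn.

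The promoter motifs printed above were set beside the responses, and a link between them was not tested. Chga had no matched window and was not searched. Scg2 and Vgf both held TGACGTCA, with log2 fold changes of 1.06 and -0.27. The half-site TGACG was found in Scg3 at 69 bases before the start and in Scg5 on both strands, 7 bases before the start and 14 bases after it, and neither form was found in Chgb, Ptprn2 or Pcsk1n. Among all 33469 RefSeq promoter windows of this length, 1.83% held TGACGTCA and 21.2% held TGACG on either strand, every TGACGTCA counting as a TGACG too. Among the tested genes with a matched window the shares were 3.19% and 32.3%. The tested genes with a matched window that held TGACGTCA numbered 309, with a median log2 fold change of -0.010, and 3.24% of them were called higher and 6.15% lower. Over all 9690 tested genes with a matched window, the median was 0.0012, with 4.69% called higher and 6.16% lower. The GC box GGGCGG was present in Vgf, Chgb, Ptprn2, Scg5 and Pcsk1n. It was found in 33.1% of all windows and in 63.6% of the tested genes with a matched window. The TATA box TATAAA, found in 14.2% and 6.24%, lay near the Vgf start. A match is a stretch of letters and not a measured binding site.

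The enzymes that cut and modify granule cargo moved in both directions. Of 10 processing enzymes, all tested, 0 were called at the 1.5-fold limit, whereas 4 were higher and 5 lower by the edgeR adjusted p alone, beside 4.81% and 6.18% of all tested genes called and 24.4% and 24.8% by the adjusted p. Their median log2 fold change was -0.037. Without replicate 2 of siScramble, without replicate 2 of siTbk1 and with library size alone, 1 enzyme, Furin, was called lower. The largest changes were in Furin (log2 -0.57, edgeR adjusted p = 0.00012), a trans-Golgi convertase at 106 and 119 CPM against 81.4 and 69.0 CPM, and in Cpd (log2 0.47, edgeR adjusted p = 2.8e-05), a trans-Golgi carboxypeptidase at 276 and 273 CPM against 371 and 387 CPM. Pcsk6, another convertase of the constitutive pathway, had a log2 fold change of -0.36 (edgeR adjusted p = 0.00027). The granule enzymes Pcsk1, Pam, Pcsk2 and Cpe were named after their values were seen. The convertase Pcsk1 was higher by 0.27 on the log2 scale (edgeR adjusted p = 0.0012). The amidating enzyme Pam was higher by 0.29 (edgeR adjusted p = 0.00070). The convertase Pcsk2 was lower, at -0.15 (edgeR adjusted p = 0.025). Cpe, the granule carboxypeptidase, had a log2 fold change of 0.078 and did not pass the test (edgeR adjusted p = 0.295).

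Cargo genes that were called were lower, insulin among them. Of 19 peptide and luminal cargo genes, 14 were in the table and 13 were tested, with 0 called higher and 5 lower, and 2 higher and 6 lower by the edgeR adjusted p alone. Over all tested genes 4.81% and 6.18% were called higher and lower, and 24.4% and 24.8% were so by the adjusted p. The median log2 fold change of the cargo genes was -0.30. The list was chosen with earlier results of these data known, so these counts are a description. The 5 lower calls fell to 2 with the genomic span correction and without replicate 3 of siTbk1, and to 0 with glmTreat, a test against the 1.5-fold limit itself. Ins1 (-0.54 with the correction, -0.51 without that library), Ins2 (-0.56 and -0.51) and Npy (-0.51 and -0.55) then fell short of the limit. With no filter on low counts 1 cargo gene, Ucn3, named after its value was seen, was called higher. Ucn3 held only 0 and 1 reads in the controls and 5 and 5 reads after siTbk1. Ins1 was at 10383 and 11092 CPM in the controls and at 7520 and 6244 CPM after siTbk1 (log2 -0.64, edgeR adjusted p = 5.7e-05). Ins2 was at 144 and 153 CPM in the controls and at 104 and 82.4 CPM after siTbk1 (log2 -0.67). The rat insulin genes are closely similar copies, and neither held reads split with other genes. Whether each read was assigned to the right copy was not tested. The other 3 called genes were weakly expressed. They were Gast (gastrin, log2 -0.89, at 2.25 and 2.32 CPM against 1.17 and 1.30), Bdnf (a neurotrophin, log2 -0.82, at 3.56 and 3.81 CPM against 2.19 and 1.96) and Npy (neuropeptide Y, log2 -0.61, at 7.93 and 12.2 CPM against 6.85 and 6.25). Npy was at -0.27 on the log2 scale without replicate 3 of siScramble. It was at -0.584 with the replicate block and -0.560 with limma, each short of the limit. Iapp, the amyloid peptide stored with insulin and named after its value was seen, was higher by 0.38 on the log2 scale (edgeR adjusted p = 0.00018).

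Of 22 genes for granule formation and maturation, 21 were tested, with 1 called higher and 1 lower, 6 higher and 8 lower by the edgeR adjusted p alone, and a median log2 fold change of -0.027. Over all tested genes 4.81% and 6.18% were called, and 24.4% and 24.8% were higher and lower by the adjusted p. The called genes encode BAR domain proteins that act at the Golgi and on immature granules. Ica1 was at 185 and 174 CPM in the controls and at 272 and 278 CPM after siTbk1 (log2 0.62, edgeR adjusted p = 5.6e-06). It was close to the limit, and was no longer called with the genomic span correction (0.49, or 0.49 with the replicate block added), library size alone (0.57), glmTreat or without replicate 3 of siScramble (0.57). Arfip2 was at 72.0 and 70.4 CPM in the controls and at 42.5 and 39.2 CPM after siTbk1 (log2 -0.80, edgeR adjusted p = 3.0e-06). Their relatives Pick1 and Arfip1 were named after their values were seen. Pick1 was lower (log2 -0.41, edgeR adjusted p = 0.00020) and Arfip1 was higher (log2 0.30, edgeR adjusted p = 0.0027). Vps52, a subunit of the tethering complexes GARP and EARP, was lower at -0.47 on the log2 scale (edgeR adjusted p = 0.00039).

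Of 24 granule membrane and tethering genes, 23 were tested, with 2 called higher and 1 lower, 12 higher and 4 lower by the edgeR adjusted p alone, and a median log2 fold change of 0.15. The shares of all tested genes were 4.81% and 6.18% called, and 24.4% and 24.8% by the adjusted p. With glmTreat 1 gene, Vamp3, was called higher and 0 lower. Vamp3, a vesicle SNARE, was at 48.5 and 46.3 CPM in the controls and at 96.5 and 104 CPM after siTbk1 (log2 1.08, edgeR adjusted p = 3.3e-07), a change of the same size as that of Scg2. Slc18a1, a vesicular monoamine transporter, had a log2 fold change of 1.12 at 1.52 and 1.74 CPM against 3.38 and 3.68 CPM (edgeR adjusted p = 0.00025). Sv2c, a synaptic vesicle glycoprotein, was lower at -0.82 on the log2 scale, from 4.87 and 5.96 CPM to 3.10 and 2.99 CPM (edgeR adjusted p = 0.00069).

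Of 12 regulators of granule genes, 10 were tested, with 0 called higher and 1 lower, 0 higher and 6 lower by the edgeR adjusted p alone, and a median log2 fold change of -0.25. Among all tested genes 4.81% and 6.18% were called, and 24.4% and 24.8% passed the adjusted p in these directions. Lower calls numbered 2, Crtc1 and Stat5b, with the genomic span correction, with library size alone and without replicate 3 of siTbk1, and 0 with glmTreat. Crtc1, a coactivator of CREB, was at 11.7 and 14.3 CPM in the controls and at 8.52 and 6.89 CPM after siTbk1 (log2 -0.74, edgeR adjusted p = 0.00047). Stat5b, a signal transducer of hormone receptors, was lower at -0.56 on the log2 scale (edgeR adjusted p = 9.4e-05). Rest, the repressor of neuronal and neuroendocrine genes, was barely expressed, at 0.604 and 0.555 CPM in the controls and at 0.319 and 0.503 CPM after siTbk1, and its log2 fold change of -0.52 (SE 0.37) did not pass the test (edgeR adjusted p = 0.258). Creb1, which encodes CREB and was named after its value was seen, had a log2 fold change of 0.24 (edgeR adjusted p = 0.217).

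**Figure D4:**
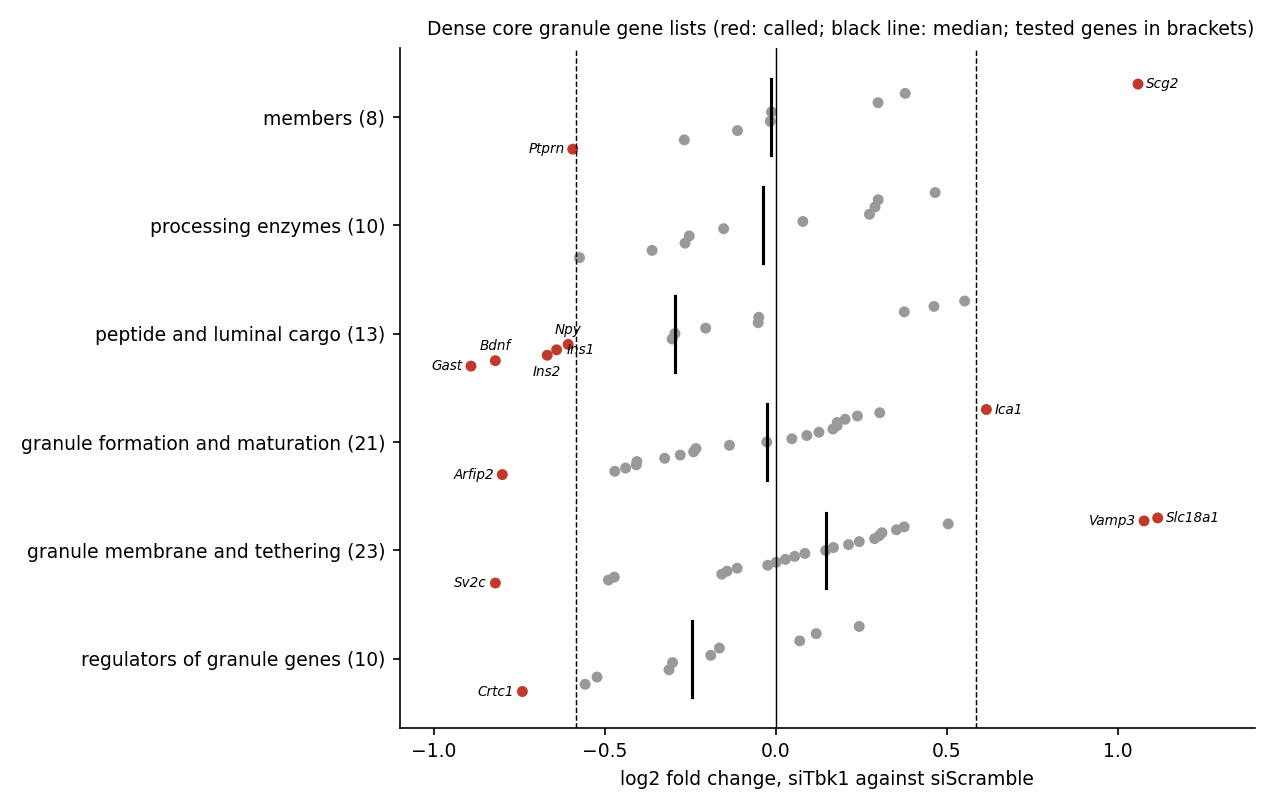
Log2 fold changes of the tested genes of each list, 1 point per gene, with called genes in red and named, the median of each list as a black line and the 1.5-fold limit as dashed lines. The cargo genes called are all lower (-0.61 to -0.89), and Scg2, Vamp3 and Slc18a1 are the 3 genes above 1.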

How the data were processed

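Total RNA of INS-1 832/13 cells was sequenced from stranded poly(A) libraries. The authors deposited 1 table of estimated counts per gene for the 4 libraries, unnormalized. The submitters' processing notes name STAR 2.6.1d, Partek and rn6, and the strand setting of the counting is not given in the sources used here. Reads shared between genes were split, so 25.8% of genes held a count more than 0.01 from a whole number. None of the 8 members did. Among the other genes named here, Npy, Ica1, Cpd, Pam, Stat5b, Arfip1, Creb1, Resp18, Slc2a2, Slc30a8 and Krt7 held such counts.

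The deposited estimated counts were rounded, genes were filtered with filterByExpr (edgeR 4.0.16, R 4.3.3), which removed 1219 genes, and counts were scaled with TMM factors (0.982 to 1.02) and tested with glmQLFit and glmQLFTest, treatment alone as the term. P-values are two-sided, with Benjamini-Hochberg adjustment over 13953 genes. CPM (counts per library total, scaled to 1000000) values are TMM-scaled, and shares of reads are not. The precision is limited by 2 libraries per group: an exact permutation test of 2 against 2 cannot go below 0.333. Alternatives used DESeq2 1.42.0, limma 3.58.1, other scalings, filters and a loess correction along genomic span. The script was tested on simulated data.

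Members and lists were chosen with earlier results of these data known, so the counts by list are a description. The text names all members, Tbk1 and, from each list, every called gene or, where fewer than 3 were called, the genes with the largest absolute changes up to 3 in all. The cell type markers are a separate list, given wherever they were analysed. Other genes outside that rule are said to be named after their values were seen. Of 9 members, 8 matched the RefSeq promoter set, and Chga did not. Gene coordinates are those the table lists (rn6), and promoters are on GRCr8. Protein features were not analysed here.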

Additional observations from a re-analysis of the deposited data

How the results depend on the processing

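Scg2 was called higher in all 17 alternatives, with a log2 fold change of 0.99 to 1.17, and Tbk1 was called lower in all 17. Ptprn was not: 0 members were called lower with glmTreat against 1.5-fold, with the genomic span correction and with the span correction joined to the replicate block (Ptprn -0.54 and -0.55), and 0 to 1 when each library was left out in turn. With no fold limit 3 members were called higher and 2 lower, and 3405 and 3459 genes. With glmTreat 163 and 101 genes were called, and with library size alone the median of all genes moved to -0.040. When each library was left out, 574 to 1159 genes were called lower, the lone sample being assumed to vary like the other group. Chga turned to 0.0584 with the span correction and 0.0581 with the replicate block added, and ranged from -0.074 to 0.0344 when each library was left out. Scg5 ranged from -0.053 to 0.020 when each library was left out and was -0.0881 with the span correction. The cause of these changes was not tested. Within libraries, the log2 ratio of Scg2 to its partner changed by 1.07 for Chga, 0.76 for Chgb, 0.68 for Scg3, 1.08 for Scg5, 1.33 for Vgf, 1.66 for Ptprn and 1.17 for Ptprn2, against 0.95 for the sum. Over 13953 genes, deviations of same-numbered samples showed almost no linear relation (Pearson 0.0041) but a negative relation by rank (Spearman -0.195). These values cannot settle whether the replicate numbers pair the samples, since the labels do not say how the cultures were grown. With the replicate block 1 member was called higher and 1 lower (Scg2 1.06, Ptprn -0.60), and 699 and 898 genes against 671 and 862. The order of the members by level was not run, since transcript lengths were not used here. Depth does not limit the members, the lowest being at 188 CPM.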
